A study of Drosophila melanogaster with 12 samples.

Results

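The mitochondrial ribosomal protein genes were taken as all genes whose symbol starts with *mRpL* or *mRpS*, and 72 of the 9981 genes in the deposited tables met this rule. Of these, 46 are named for the large subunit and 26 for the small subunit. The choice used names only and no measured value. Intestinal RNA was sequenced in 2 experiments. In the first, adults carried the enterocyte driver *myo1A-GAL4* with *Tub-GAL80ts* and *UAS-GFP*, and expressed RNAi against *dMPC1* (*myo1A > dMPC1-RNAi*, 3 libraries) or against *mCherry*, a fluorescent protein gene that flies lack (*myo1A > mCherry-RNAi*, 2 libraries). RNAi was held off until adulthood and then ran for 7 days in animals that were 4 to 5 days old at its start. In the paper's counts of dividing cells, RNAi was released by moving adults to a warmer temperature than that of the stocks. The paper's sequencing methods state no temperature. The driver acts in enterocytes, so the other cells of these intestines were not targeted. In the second, adults of 7 to 10 days were transheterozygous for the deletion alleles *dMPC1 1* and *dMPC1 2* (*dMPC1* mutants, 2 libraries) or carried on both chromosomes a precise excision of the starting P element (1 library). Mutant animals lacked *dMPC1* in every tissue and throughout development, and the labels give the strain of all libraries as w1118. *dMPC1* encodes a subunit of the mitochondrial pyruvate carrier, which moves pyruvate from the cytosol into the mitochondrial matrix. The comparisons ask whether transcripts for the ribosome inside mitochondria changed when that carrier was lost.

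Mitochondria keep their own ribosome, which makes the few proteins encoded by mitochondrial DNA, nearly all of them subunits of the respiratory chain and ATP synthase. Its rRNAs are transcribed from mitochondrial DNA, but its proteins are encoded in the nucleus, made in the cytosol and imported. The large subunit forms peptide bonds and holds the tunnel through which the new chain leaves. The small subunit binds and decodes the mRNA. Many of these proteins have bacterial counterparts, and others joined the ribosome after mitochondria arose and are found in mitochondria alone. By the numbering of ribosomal proteins, 42 of the 72 genes here are of the bacterial type and 30 are mitochondria-specific. This rule uses numbers alone and can misplace genes, as it does *mRpS24*, which has a bacterial counterpart. *mRpS18A* and *mRpS30* carry small-subunit names, although their human counterparts sit in the large subunit.

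Facts on the libraries come first. Reads in genes were between 7362983 and 21918521 per library, and the 72 members together held between 11074 and 38364 reads. A single member had between 45 and 1532 reads in a library. *Mpc1*, the targeted gene, had a log2 fold change of −1.88 with RNAi (adjusted p = 4.83e-05 from limma) and of −7.70 in mutants (adjusted p = 0.000146 from limma), so it fell in both. With *myo1A > mCherry-RNAi* replicate 1 or 3 left out, the RNAi value no longer passed at 0.01. That fit kept 1 control and took its variance from both experiments, so the loss is not set by the library alone. All 10 enterocyte markers were detected in every library. *Myo31DF*, the gene behind the driver, had between 5122 and 5584 normalized counts in *myo1A > dMPC1-RNAi* libraries, against 5638 and 5684 in *myo1A > mCherry-RNAi* libraries. By the call used throughout (limma, with an adjusted p no higher than 0.01 and a log2 change of 0.6 or more either way), the RNAi experiment had 0 rises and 2 falls among 10 enterocyte markers, 4 rises and 0 falls among 7 progenitor markers, 2 rises and 0 falls among 9 enteroendocrine markers, and neither among 8 visceral muscle markers. It had 3 falls among 4 fat body genes tested, 1 fall among 3 Malpighian tubule genes, none among 4 hemocyte genes and 1 rise among 8 egg chamber genes. In mutants there were 2 rises and 1 fall for enterocytes, 4 falls of 8 for muscle, 1 rise and 3 falls of 5 for fat body, 1 rise of 3 for Malpighian tubule and 1 fall of 5 for hemocytes, with none for the other lists. In *myo1A > dMPC1-RNAi* replicate 1 the 26 egg chamber genes summed to 454 normalized counts, against 132 and 179.8 in its other replicates and 78.9 and 83.2 in *myo1A > mCherry-RNAi* libraries. Of these 26 genes, 8 were at 0 in that library. In mutants the egg chamber sums were 88.2 and 119.7, against 212.0 with precise excision. That control was also higher for fat body (42764 against 8674 and 9765), muscle (25778 against 13106 and 12899) and hemocytes (1085 against 369 and 488). It was lower for Malpighian tubule (11012 against 16082 and 18758). The part of these shifts in the member values was not tested, so counts are also given without *myo1A > dMPC1-RNAi* replicate 1. The only precise excision library could not be left out. In bulk tissue, fewer cells of a type and less RNA per cell cannot be told apart.

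As a group, the mitochondrial ribosomal protein genes stayed close to their control levels in both experiments. The 72 members summed to 18855, 19397 and 21447 normalized counts (gene counts divided by the authors' size factor for the library) in *myo1A > dMPC1-RNAi* libraries, against 20370.4 and 20313 in *myo1A > mCherry-RNAi* libraries. These groups overlapped, and replicate 3 lay above both controls while replicates 1 and 2 lay below. The group sums averaged 19900 ± 1367 with *dMPC1* RNAi (SD, n = 3) and 20342 ± 40.8 with *mCherry* RNAi (SD, n = 2). In mutants the sums were 20389 and 18944, against 19149.5 in the precise excision library, which lay between them.

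**Figure D1:**
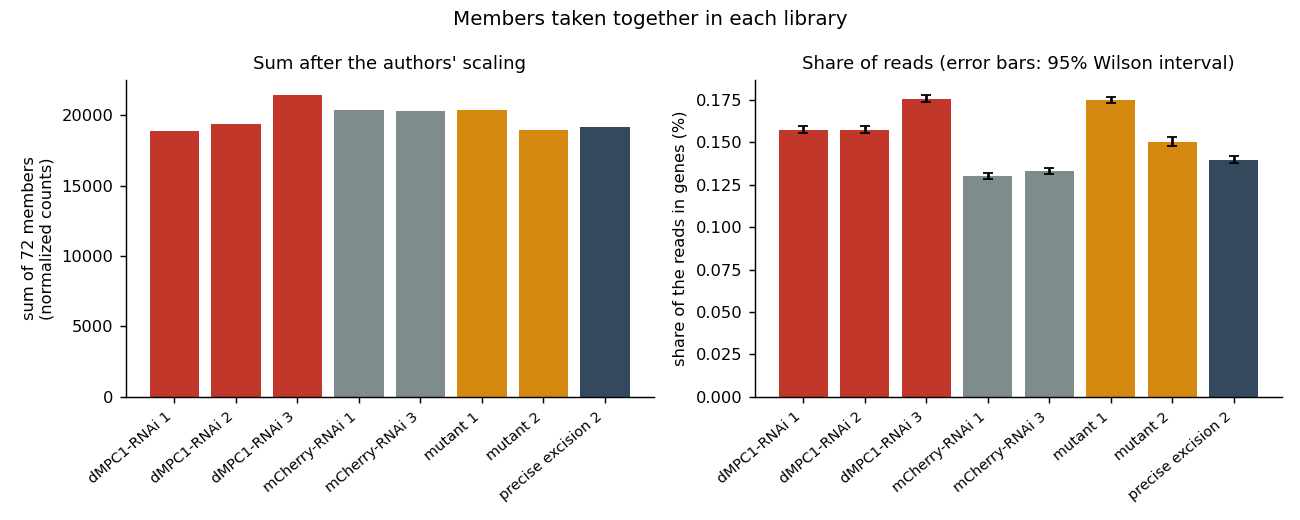
The 72 members as a sum in each of 8 libraries: left, normalized counts; right, the share of all reads in genes in percent, with 95% Wilson intervals as error bars. Bar colours mark the 4 groups. The sums of *myo1A > dMPC1-RNAi* libraries lie on both sides of their controls, whereas their shares, from 0.157% to 0.176%, lie above the control shares of 0.130% and 0.133%.

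As a share of reads the picture differed. Members held 0.157% (95% Wilson interval 0.155% to 0.159%), 0.157% (0.155% to 0.160%) and 0.176% (0.174% to 0.178%) of the reads in genes in *myo1A > dMPC1-RNAi* replicates 1, 2 and 3. They held 0.130% (0.128% to 0.132%) and 0.133% (0.131% to 0.135%) in the *myo1A > mCherry-RNAi* libraries. All *dMPC1*-RNAi libraries were above both controls on this measure. The mutant shares were 0.175% (0.173% to 0.177%) and 0.1504% (0.148% to 0.153%), against 0.140% (0.138% to 0.142%) with precise excision. These intervals cover counting error within a library and not the spread between replicates. They also treat every read as separate, since the reads carry no molecular identifiers. The 20 most abundant genes of a library moved the other way: they took between 19.6% and 22.5% of the normalized counts in *myo1A > dMPC1-RNAi* libraries, against 26.7% and 27.3% in their controls, and 16.8% and 19.1% in mutants, against 23.2% with precise excision. When libraries were scaled to their total reads, a choice added after seeing the data, the median of all genes tested shifted by 0.34 on the log2 scale with RNAi and by 0.18 in mutants. The members moved with it, to medians of 0.32 and 0.24.

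Across single members the fold changes were small. With RNAi the median log2 fold change of the members was −0.03, beside −0.01 over all 8921 genes tested. The median size of a change, whatever its sign, was 0.12 for members and 0.32 for all genes. The member median turned to 0.02 without *myo1A > dMPC1-RNAi* replicate 1 and was −0.10 without replicate 3. In mutants the median was 0.06, beside 0.01 over all 8794 genes tested, with a median size of 0.12 for members and 0.24 for all genes. Without mutant replicate 1 the mutant median was −0.01. Changes smaller than 0.2 in size were found for 56 members with RNAi, and for 3010 of all 8921 genes tested. In mutants they were found for 53 members, and for 3847 of all 8794 genes tested.

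All 72 members passed the filter on low values in both experiments. Over all genes limma called 627 higher and 599 lower with RNAi, a split that turned to 1726 and 272 with libraries scaled to total reads, and 115 higher and 210 lower in mutants, which turned to 316 and 217. With RNAi 1 member rose, where 7.03% of all genes tested did, and 0 fell, where 6.71% did. At an unadjusted p under 0.05 from limma there were 3 higher and 4 lower members, where 4088 of all 8921 genes tested passed in either direction. For members, edgeR and DESeq2 on whole reads called the same gene up and 0 down. In mutants limma called 0 members up, where 1.31% of all genes tested rose, and 0 down, where 2.39% fell. There, 1 member was higher and 1 lower at an unadjusted p under 0.05 from limma, where 2088 of all 8794 genes tested passed in either direction. edgeR and DESeq2 called 0 members in either direction in mutants. At an adjusted p of at most 0.05 with no fold minimum, 1 member was higher and 1 lower with RNAi, where 15.6% and 17.9% of all genes were. In mutants this rule gave 0 of each, where 3.79% and 5.58% of all genes were higher and lower. The 95% confidence interval of the fold change lay wholly within 0.6 of zero for 66 members with RNAi, and for 41.8% of all genes. In mutants, with fewer libraries, it did so for 53 members and for 39.5% of all genes. An interval within 1 of zero, a 2-fold change either way, held for all 72 members with RNAi and for 71 in mutants, the exception being *mRpL34*.

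**Figure D2:**
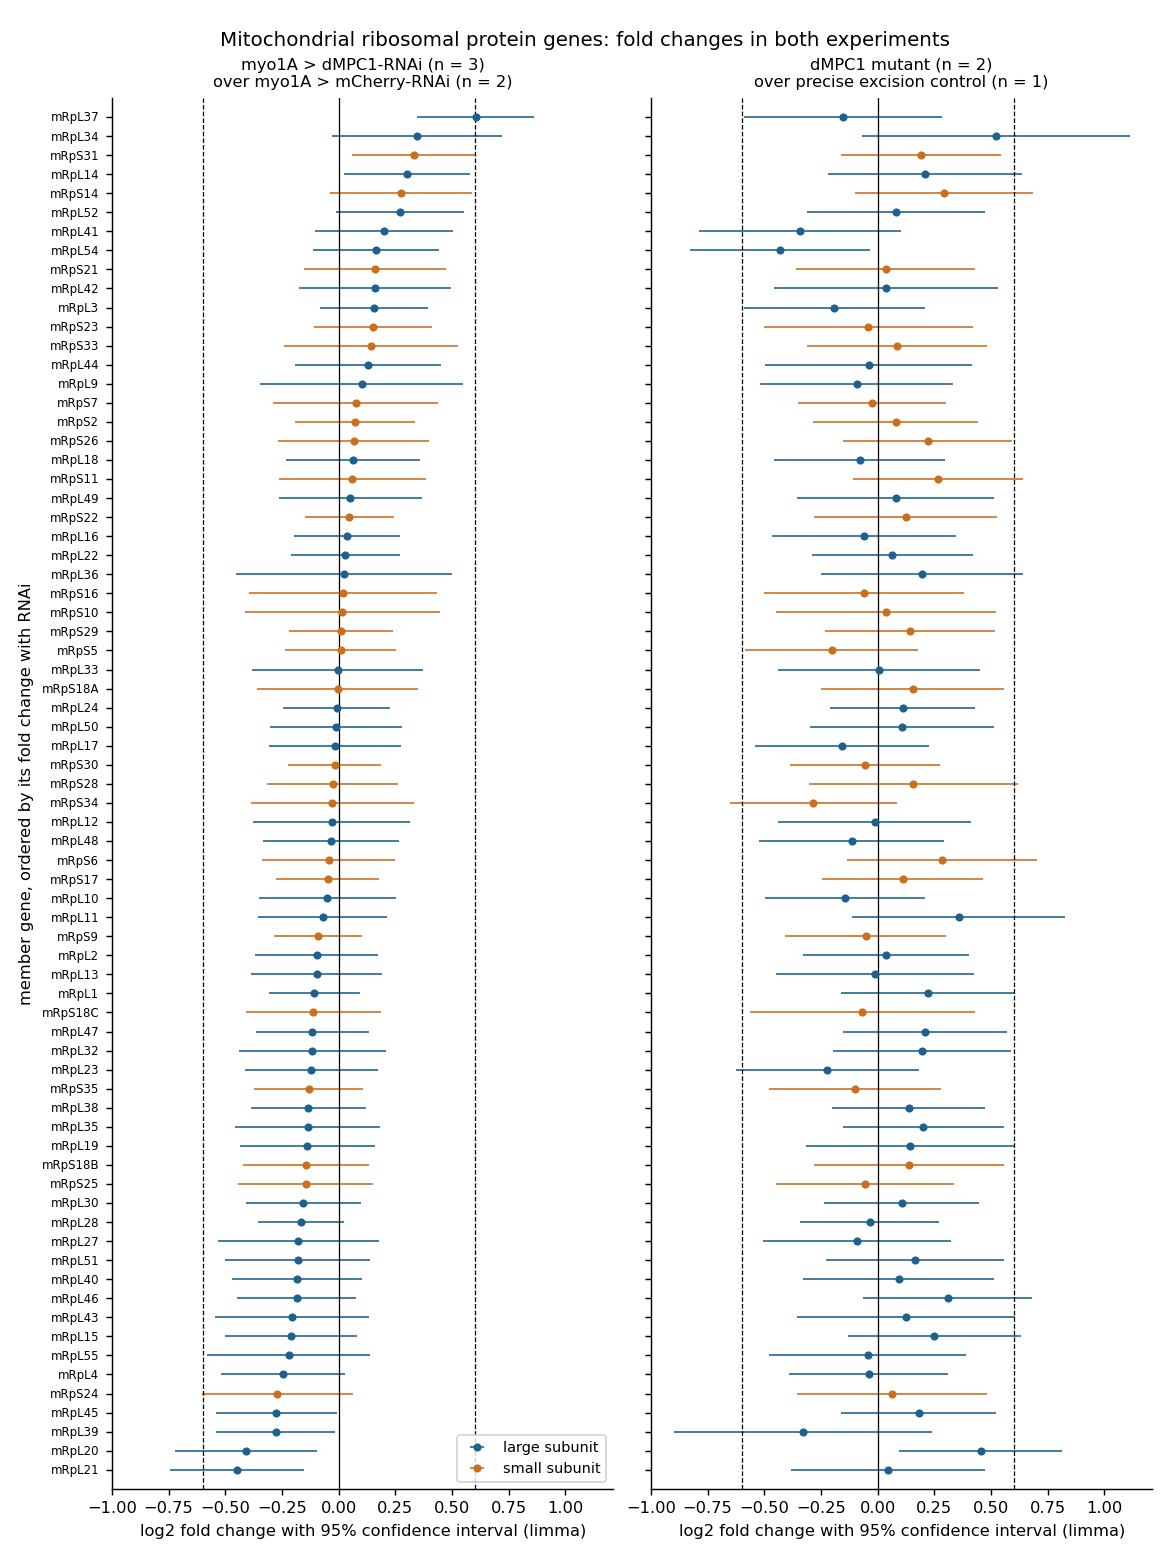
Log2 fold change of each of 72 members (rows, ordered by the RNAi value) with its 95% confidence interval from limma. Left: *myo1A > dMPC1-RNAi* over *myo1A > mCherry-RNAi*. Right: *dMPC1* mutant over precise excision. Dashed lines mark 0.6 in either direction. *mRpL37*, at the top, is the member that reached the line with RNAi, and no member reached it in mutants.

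*mRpL37* was the member called with RNAi. It encodes a mitochondria-specific protein of the large subunit. It had 412, 459.9 and 483 normalized counts in *myo1A > dMPC1-RNAi* libraries, against 310.2 and 283 in *myo1A > mCherry-RNAi* libraries, with no overlap between the groups. Its log2 fold change was 0.60 (95% interval 0.35 to 0.86, adjusted p = 0.00701 from limma), which lies just past the fold minimum of 0.6. The next member below it, *mRpL34*, was at 0.35, and at 0.19 without *myo1A > mCherry-RNAi* replicate 1. The *mRpL37* call was lost without *myo1A > dMPC1-RNAi* replicate 2 (adjusted p = 0.0337) or 3 (0.0253), and it was kept without *myo1A > dMPC1-RNAi* replicate 1. It was also lost without either *myo1A > mCherry-RNAi* replicate, where 1 control remained and the fit took its variance from both experiments. In mutants *mRpL37* had 316 and 248 normalized counts, against 311 with precise excision, so the mutants lay on both sides of the control. The log2 fold change there was −0.15 (95% interval −0.59 to 0.29, adjusted p = 0.686 from limma).

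Other members whose libraries did not overlap with RNAi differed by less, and none was called. Members higher in all *myo1A > dMPC1-RNAi* libraries numbered 11 of 72, or 15.3%, where 30.8% of all genes tested were. Members lower in all of them numbered 13, or 18.1%, where 31.8% of all genes were. The largest of the 11 after *mRpL37* were *mRpL34*, *mRpS31*, *mRpL14* and *mRpS14*. *mRpL34*, with a bacterial counterpart in the large subunit, had 82.3, 87.4 and 87.4 normalized counts against 60.3 and 74.9 in controls. *mRpS31*, a mitochondria-specific protein of the small subunit head, had 241, 227 and 266 against 202 and 186. *mRpL14*, whose bacterial counterpart lies at the interface of the subunits, had 133, 131 and 129 against 103 and 109. Every *dMPC1*-RNAi value of these 3 genes was above both controls, but their adjusted p-values from limma were 0.133, 0.0657 and 0.0878. *mRpS14*, which lies in the small subunit head, had 144.5, 158 and 178 against 133 and 131 (log2 fold change 0.28, adjusted p = 0.147 from limma). In the reference annotation 35.8% of its exon length is shared with neighbouring genes, and use of strand in the counting is not given in the sources used here, so its value is uncertain.

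*mRpL21* and *mRpL20* had the most negative log2 fold changes with RNAi. Both encode counterparts of bacterial proteins that bind the rRNA of the large subunit. *mRpL21* had 155, 168 and 191 normalized counts in *myo1A > dMPC1-RNAi* libraries, against 236 and 232 in controls. Its log2 fold change was −0.45 (95% interval −0.75 to −0.15, adjusted p = 0.0330 from limma), which passed at 0.05 but not by the call used here. It missed 0.05 without *myo1A > dMPC1-RNAi* replicate 2 (adjusted p = 0.0990) and with DESeq2 (0.0608). It also missed 0.05 without either *myo1A > mCherry-RNAi* replicate, in the fit that took its variance from both experiments. *mRpL20* had 169, 187 and 167 against 209 and 257 (log2 fold change −0.41, 95% interval −0.72 to −0.10, adjusted p = 0.0519 from limma), and its controls differed from each other by more than its *dMPC1*-RNAi libraries did. Without *myo1A > mCherry-RNAi* replicate 3 the value was −0.26.

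*mRpL39*, *mRpL45* and *mRpS24* followed, with log2 fold changes of −0.28, −0.27 and −0.27 and adjusted p-values of 0.0939, 0.102 and 0.176 from limma. *mRpL39*, a large subunit protein related to threonyl-tRNA synthetase, had 317, 381 and 353 normalized counts against 437 and 411 in controls. *mRpL45*, which in human mitochondria sits at the tunnel exit beside the inner membrane, had 517, 423 and 498 against 591 and 565. *mRpS24*, which its number places among the mitochondria-specific genes although it is the counterpart of bacterial S3, had 158, 140.2 and 173 against 175 and 204, and 55.3% of its exon length is shared with a gene on the opposite strand. Without *myo1A > mCherry-RNAi* replicate 3 the *mRpS24* value was −0.16. The intervals of the first 2 ended just below zero and that of *mRpS24* included it. Scaled to total reads, all 3 values turned to 0.07.

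**Figure D3:**
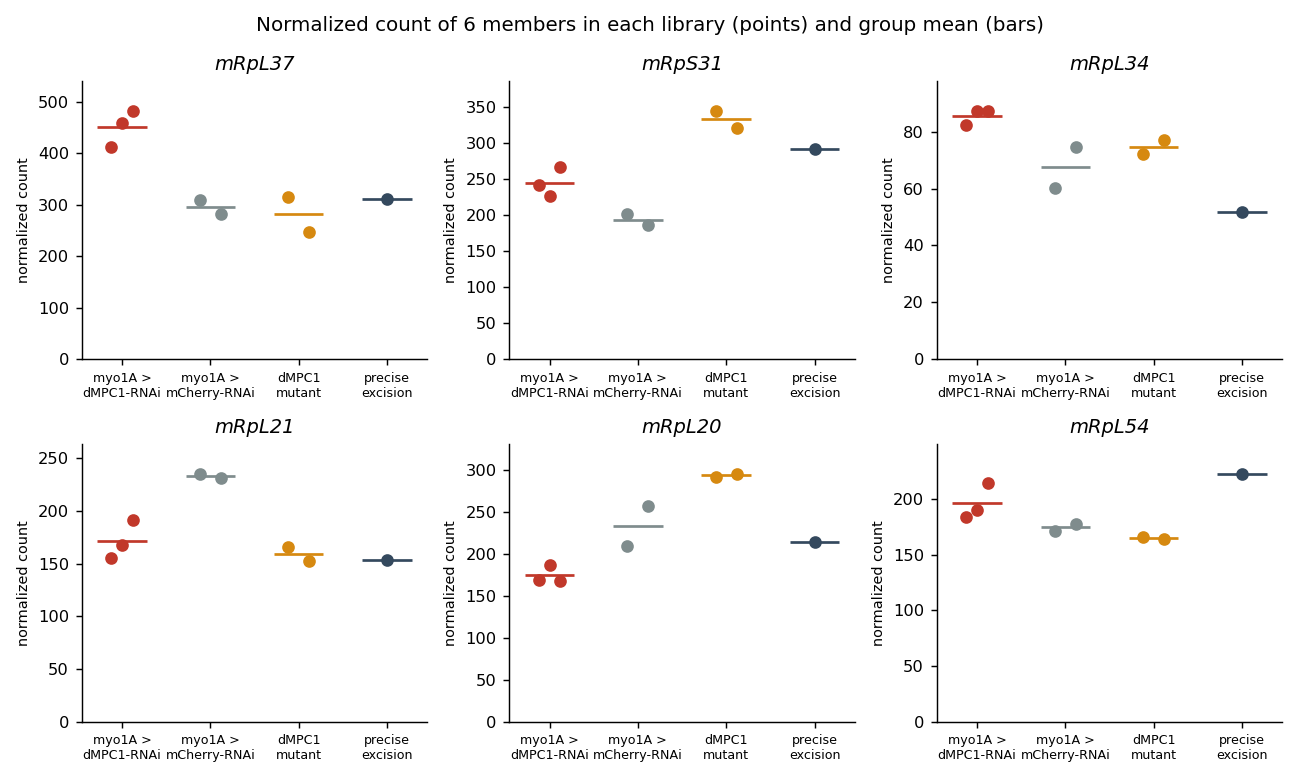
Normalized counts of 6 members in every library (points; horizontal bars are group means) for *myo1A > dMPC1-RNAi*, *myo1A > mCherry-RNAi*, *dMPC1* mutant and precise excision. The vertical axes start at 0. *mRpL37* is higher with *dMPC1* RNAi and not in mutants, *mRpL20* is lower with RNAi and higher in mutants, and *mRpL54* is lower in mutants.

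In mutants, both libraries lay above the control for 33 members (45.8%, where 41.2% of all genes tested did) and below it for 14 (19.4%, where 38.9% did). With 1 control library this order carries little weight. The largest positive fold changes were those of *mRpL34*, *mRpL20*, *mRpL11*, *mRpL46* and *mRpS14*. *mRpL34* had 72.3 and 77.0 normalized counts in mutants, against 51.6 with precise excision (log2 fold change 0.52, 95% interval −0.07 to 1.11, adjusted p = 0.265 from limma). *mRpL20* had 292 and 296 against 214 (0.45, 95% interval 0.09 to 0.82, adjusted p = 0.128 from limma). The mutant replicates were close together for both genes. *mRpL11*, at the base of the stalk that recruits elongation factors, had 142 and 127 against 104 (0.36). *mRpL46*, of the central protuberance at the top of the large subunit, had 324 and 291 against 248 (0.31). *mRpS14* had 262 and 233 against 201 (0.29). For the last 3 genes the mutant replicates differed from each other by over 0.6 of the distance from the control to the nearer of them, and none of the 5 passed the test.

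The most negative fold changes in mutants were those of *mRpL54*, *mRpL41*, *mRpL39*, *mRpS34* and *mRpL23*. *mRpL54*, a mitochondria-specific protein of the large subunit, had 166 and 164 normalized counts, against 223 with precise excision (log2 fold change −0.43, 95% interval −0.83 to −0.03, adjusted p = 0.181 from limma). *mRpL41*, also mitochondria-specific, had 148 and 130.01 against 176 (−0.34). The *mRpL54* replicates were far closer to each other than to the control. *mRpL39* had 290.2 and 193 against 298 (−0.33), so that 1 mutant library was near the control and the other well below it. Without mutant replicate 2 this value was −0.04, and without replicate 1 it was −0.62. *mRpS34*, mitochondria-specific and in the small subunit, had 238 and 227 against 283 (−0.28), and *mRpL23*, which in bacteria lines the tunnel exit, had 175 and 166 against 199 (−0.22). None of these passed the test, with adjusted p-values from limma between 0.181 and 0.495.

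The interaction term asked directly whether a member's mutant fold change differed from its RNAi fold change. limma called 0 members higher in mutants than with RNAi, where 3.94% of all 8916 genes tested were, and 0 lower, where 4.78% were. At an unadjusted p under 0.05 from limma there were 4 higher and 3 lower members, where 3149 of all 8916 genes tested passed in either direction. edgeR and DESeq2 called 0 members. At an adjusted p of at most 0.05, 1 member was higher and 1 lower, where 10.4% and 10.7% of all genes were. The higher one was *mRpL20*, with a log2 fold change of 0.45 in mutants and −0.41 with RNAi (difference 0.86 with a standard error of 0.20, adjusted p = 0.0209 from limma). The lower one was *mRpL37*, with −0.15 in mutants and 0.60 with RNAi (difference −0.76 with a standard error of 0.22, adjusted p = 0.0438 from limma). Leaving out each library in turn, *mRpL20* stayed at or under 0.05 in 5 of 7 cases (adjusted p up to 0.0699) and *mRpL37* in 2 of 7 (adjusted p up to 0.133). *mRpL54* came next at −0.60 (adjusted p = 0.0546 from limma). Fold changes had opposite signs in the 2 experiments for 38 of 72 members. Groups did not overlap in either experiment, and differed in the same direction, for 7 members, which were *mRpL14*, *mRpL34*, *mRpL52*, *mRpS14* and *mRpS31* (higher) and *mRpL28* and *mRpL39* (lower). That is 9.72% of members, where 23.9% of all genes tested were such cases. They differed in opposite directions for 9 members (12.5%, where 26.3% of all genes were), among them *mRpL38*, *mRpL40* and *mRpL46*, which were lower with RNAi and higher in mutants. These lists were read off after the values were seen.

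Neither subunit was far from zero. With RNAi the 46 large-subunit genes had a median log2 fold change of −0.08 (15 above zero, 31 below) and the 26 small-subunit genes a median of 0.01 (14 above, 12 below), and the median size of a change was 0.14 and 0.07. In mutants the medians were 0.06 for the large subunit (27 above, 19 below) and 0.07 for the small subunit (16 above, 10 below). The ratio of the summed large-subunit to the summed small-subunit counts was 1.71, 1.59 and 1.68 in *myo1A > dMPC1-RNAi* libraries, against 1.71 and 1.77 in controls. It was 1.64 and 1.65 in mutants, against 1.64 with precise excision. The ratio therefore varied between replicates by as much as it did between groups. Bacterial-type genes had medians of −0.04 with RNAi and 0.04 in mutants, and mitochondria-specific genes had medians of −0.02 and 0.08, with *mRpL37* the only call in any of these divisions.

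Part of the members were also grouped by place in the ribosome. *mRpL37*, the only member called, was assigned to none of these sites, so the absence of calls in them carries no information. These groupings follow the human and bacterial structures and were made after the values were known, so they are given without a test. The stalk genes *mRpL10*, *mRpL11* and *mRpL12* had log2 fold changes between −0.07 and −0.03 with RNAi and between −0.14 and 0.36 in mutants. For 8 genes around the exit tunnel (*mRpL17*, *mRpL22*, *mRpL23*, *mRpL24*, *mRpL39*, *mRpL44*, *mRpL45* and *mRpL47*), the range was −0.28 to 0.13 with RNAi and −0.33 to 0.21 in mutants. The central protuberance genes *mRpL18*, *mRpL27*, *mRpL38*, *mRpL40*, *mRpL46* and *mRpL48* had a median of −0.16 with RNAi, with 5 of 6 below zero, and of 0.01 in mutants, with 3 of 6 below zero. For 9 genes of the small subunit head (*mRpS7*, *mRpS9*, *mRpS10*, *mRpS14*, *mRpS24*, *mRpS29*, *mRpS31*, *mRpS33* and *mRpS35*), values ran from −0.27 to 0.33 with RNAi, with 6 above zero. In mutants they ran from −0.10 to 0.29, again with 6 above zero.

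The *mRpS18* paralogs are 3 genes for counterparts of 1 bacterial protein. *mRpS18A* had 169, 174 and 217 normalized counts in *myo1A > dMPC1-RNAi* libraries, against 173 and 199.6 in controls. *mRpS18B* had 193, 210.2 and 226 against 243 and 220.4. *mRpS18C* had 103, 116 and 111 against 118 and 119.6. Groups overlapped for the first 2 genes, while all *dMPC1*-RNAi values of *mRpS18C* were below its controls by a small margin. Their log2 fold changes were −0.00, −0.14 and −0.11 with RNAi and 0.15, 0.14 and −0.07 in mutants, and none passed the test. Per kilobase of coding sequence *mRpS18A* was at 394 ± 37.5, *mRpS18B* at 351 ± 30.4 and *mRpS18C* at 265 ± 16.9 normalized counts (SD over 8 libraries). The ranges of *mRpS18A* and *mRpS18B* overlapped, and every value of *mRpS18C* was below every value of both.

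Levels were compared per unit of length. Per kilobase of coding sequence, the means over 8 libraries ran from 214 to 898 normalized counts, a range of 4.19-fold, with a median of 383 and quartiles at 319 and 485. The large-subunit median was 377 and the small-subunit median 388. Coding lengths came from a newer annotation than the reads were counted on. Reads from untranslated regions are in the counts but not in the length. Genes with much untranslated sequence beside their coding sequence are therefore placed too high. In that annotation *mRpL33* has 192 coding bases of 349 exon bases, *mRpL28* 906 of 1170, *mRpL12* 546 of 738 and *mRpL21* 603 of 1696. The order below holds for coding length only and may differ per exon length. *mRpL28* was highest at 898 ± 49.3 per kilobase (SD over 8 libraries), followed by *mRpL33* at 892 ± 114 and *mRpL12* at 888 ± 136. *mRpL12* encodes the stalk protein that contacts elongation factors, and *mRpL28* and *mRpL33* are counterparts of small bacterial proteins. The ranges of these 3 overlapped, so their order is not set beyond the spread. At the low end were *mRpS31* at 231 ± 50.1, *mRpL44* at 220.5 ± 23.8 and *mRpL11* at 214 ± 18.9, which also overlapped. Every library placed the top 3 above the bottom 3.

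**Figure D4:**
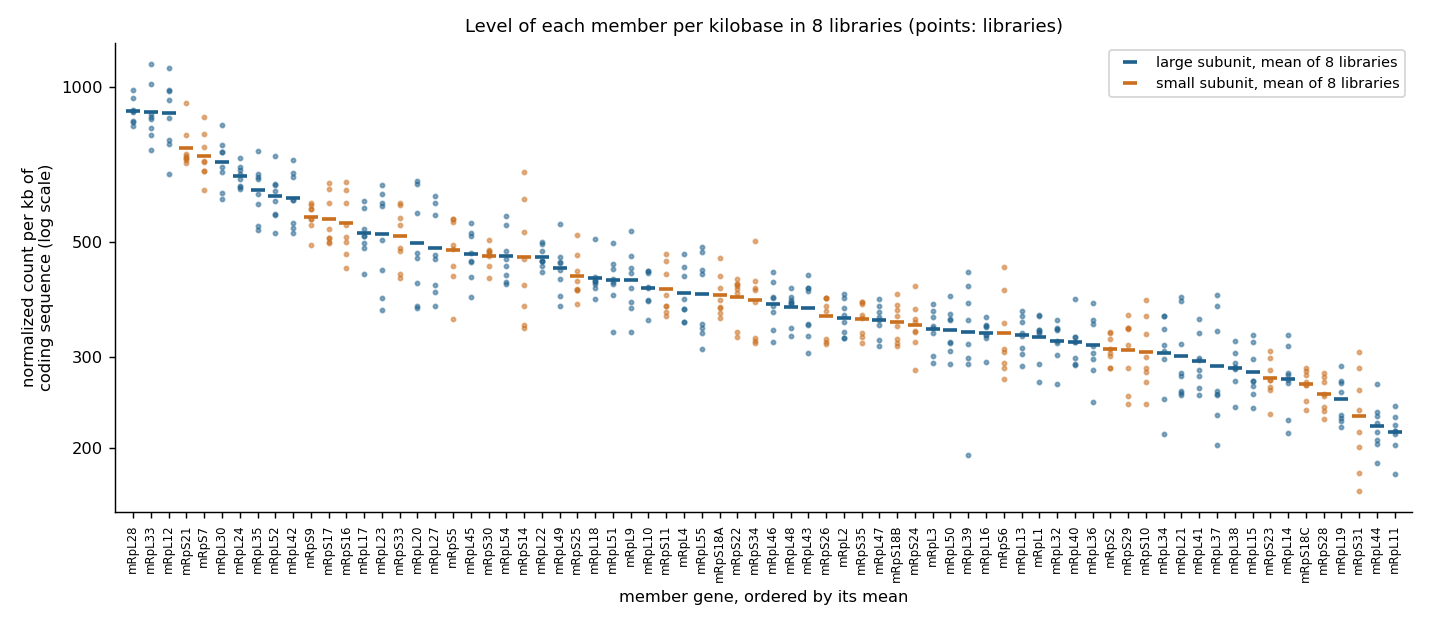
Normalized count per kilobase of coding sequence (log axis) for each of 72 members, ordered by the mean of 8 libraries (dash), with each library as a point. Colours mark the subunit in the gene name. Members fall from 898 for *mRpL28* to 214 for *mRpL11*, and both subunits are spread along the whole order.

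Members also varied little from library to library. The highest of 8 libraries was a median of 1.37 times the lowest over the members, against 1.71 times over all 8916 genes tested. It was under 1.5 times for 54 members (75%) and for 33.3% of all genes. The set of all genes reaches down to a mean of 10 normalized counts, while every member had at least 45 reads in each library. Genes matched to the members by level were not compared. Between replicates the smaller spread of the members was not uniform. The median size of the log2 difference, whatever its sign, was 0.107 for members and 0.110 for all genes between the *myo1A > mCherry-RNAi* libraries. Between mutants it was 0.153 and 0.156. Among *myo1A > dMPC1-RNAi* libraries, members differed less for replicates 1 and 2 (0.107 and 0.204) and 1 and 3 (0.174 and 0.226). They differed more for replicates 2 and 3 (0.168 and 0.118). By the ratio of highest to lowest library, the steadiest were *mRpL22*, *mRpL24* and *mRpL28*, at 1.14, 1.15 and 1.17 times. The least steady were *mRpL39* at 2.26 times and *mRpS14* at 2.00 times. Many members were high or low in the same library. Among the *myo1A > dMPC1-RNAi* libraries, replicate 3 was the highest for 58 members, replicate 2 for 8 and replicate 1 for 6, while replicate 1 was the lowest for 45. Mutant replicate 1 was above mutant replicate 2 for 57 members. Replicates of the same genotype therefore differed in a common direction by a median of 0.17 on the log2 scale between *myo1A > dMPC1-RNAi* replicates 1 and 3, and by 0.14 between the mutants. The median fold changes of the members with RNAi and in mutants, −0.03 and 0.06, were smaller than these replicate differences.

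The 2 experiments differed from each other in some members. All 3 libraries of the mutant experiment were above all 5 of the RNAi experiment for 7 members (9.72%, where 8.45% of all genes tested were) and below for 6 (8.33%, where 7.88% were). These shares are near those of all genes. *mRpS14* averaged 232 normalized counts in the mutant experiment and 149 in the RNAi experiment, a ratio of 1.56, and *mRpS31* averaged 319 and 224. In the other direction, *mRpL23* averaged 180.1 and 266, and *mRpL39* averaged 260.5 and 379.9. Transgenes and age differed between the experiments, and temperature may have, and their parts in these differences cannot be told apart.

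Other genes of mitochondrial translation also had medians near zero. Of 31 genes found for translation factors, tRNA synthetases and related proteins, 0 were called with RNAi by limma, with 5 at an unadjusted p under 0.05 and a median log2 fold change of −0.00. In mutants 1 rose and 0 fell, with a median of 0.07. The gene that rose was *tko*, which encodes the mitochondrial counterpart of bacterial S12 in the small subunit and stands outside the naming rule. It had 389.6 and 379.8 normalized counts in mutants, against 190.5 with precise excision (log2 fold change 1.01 with a standard error of 0.15, adjusted p = 0.00704 from limma). In the RNAi experiment it had 327, 366 and 372 with *dMPC1* RNAi and 342 and 375 with *mCherry* RNAi (log2 fold change −0.02, adjusted p = 0.919 from limma). The precise excision library was thus the low one among all 8. The fold changes of the 2 experiments differed by 1.03 (SE 0.17, adjusted p = 0.00561 from limma). The mutant call was lost with edgeR (adjusted p = 0.0238) and DESeq2 (0.0267). It was also lost without either mutant replicate, in a fit that took its variance from both experiments. *bonsai*, the S15 counterpart, had 322, 455 and 427 with *dMPC1* RNAi against 381.4 and 381.6, and 409 and 334 in mutants against 337, and was not called.

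The list for mitochondrial transcription and DNA upkeep came next, which also holds *Lon*, *Hsp60*, *srl* and *ewg*. Of 17 tested, 1 rose and 2 fell with RNAi, where 7.03% and 6.71% of all genes tested did. In mutants 0 were called, where 1.31% of all genes rose and 2.39% fell, and 2 had an unadjusted p under 0.05 from limma. Scaled to total reads, 2 rose and 0 fell with RNAi. *tam*, the catalytic subunit of the mitochondrial DNA polymerase, had 277, 305 and 286 normalized counts in *myo1A > dMPC1-RNAi* libraries against 124 and 137 in controls (log2 fold change 1.14, adjusted p = 0.000761 from limma). Its call was lost without *myo1A > mCherry-RNAi* replicate 1, where 1 control remained and the fit took its variance from both experiments. *mtRNApol*, the mitochondrial RNA polymerase, had 385, 362 and 423 against 644 and 606 (−0.68, adjusted p = 0.00372 from limma). It no longer passed without *myo1A > dMPC1-RNAi* replicate 2 (adjusted p = 0.0182), and it was −0.34 scaled to total reads (0.0317). It also did not pass without either control replicate, in the fit that took its variance from both experiments. *scu*, a dehydrogenase that is also a subunit of mitochondrial RNase P, had 947, 914 and 969 against 1829 and 1649.9 (−0.88, adjusted p = 0.000783 from limma), and was at −0.54 scaled to total reads, short of the fold minimum. None of these groups overlapped.

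The products of mitochondrial DNA and the cytosolic ribosome are given beside the members for scale. Of 15 mitochondrially encoded genes, none were called in either experiment by limma, with 1 at an unadjusted p under 0.05 of 15 tested with RNAi and 3 of 14 in mutants. Their medians were 0.12 with RNAi, −0.05 without *myo1A > mCherry-RNAi* replicate 1, and −0.51 in mutants. The mutant median was −0.28 without replicate 1 and −0.74 without replicate 2, and the summed counts were 173184 and 327534 in mutants, against 361247 with precise excision. The rRNA of the large subunit, *mt:lrRNA*, had 393584, 429339 and 330069 normalized counts in *myo1A > dMPC1-RNAi* libraries against 256976 and 303902 in controls, and 98196 and 203757 in mutants against 218439 with precise excision. *mt:srRNA*, of the small subunit, had between 14.7 and 18.2 with *dMPC1* RNAi against 15.3 and 10.4, and 33.5 and 27.4 in mutants against 41.96. These 2 levels were not compared with each other, since selection of RNA before sequencing can set them. Of 46 nuclear respiratory chain genes, 0 were called in either experiment, with 31 at an unadjusted p under 0.05 with RNAi and 2 in mutants. Over all genes tested, 4088 of 8921 with RNAi and 2088 of 8794 in mutants passed that limit. At an adjusted p of at most 0.05, 24 of the 46 were lower with RNAi, and the medians of the 46 were −0.29 with RNAi and −0.16 in mutants. Of the 3 pyruvate carrier genes, 2 fell with RNAi, and 1, *Mpc1*, fell in mutants. Of 84 cytosolic ribosomal protein genes, 17 fell with RNAi, where 6.71% of all genes tested did, with a median of −0.50. In mutants 0 were called, with 33 at an unadjusted p under 0.05 and a median of 0.38. The interaction called 41 of these 84 higher in mutants than with RNAi, and 0 of the 72 mitochondrial ones, where 3.94% of all genes tested were. The median standard error of that term was 0.166 for the cytosolic genes and 0.202 for the mitochondrial ones, so the counts are not at like precision. Scaled to total reads, the respiratory chain medians turned to 0.06 with RNAi and 0.02 in mutants, the cytosolic medians were −0.16 and 0.56 with 0 falls, and the interaction called 7 of the 84 higher. Leaving out each library in turn, falls with RNAi ranged from 0 (without *myo1A > dMPC1-RNAi* replicate 3 or either control) to 32 (without *myo1A > dMPC1-RNAi* replicate 1). Cytosolic genes called by the interaction ranged from 0 to 78 in the same way.

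**Figure D5:**
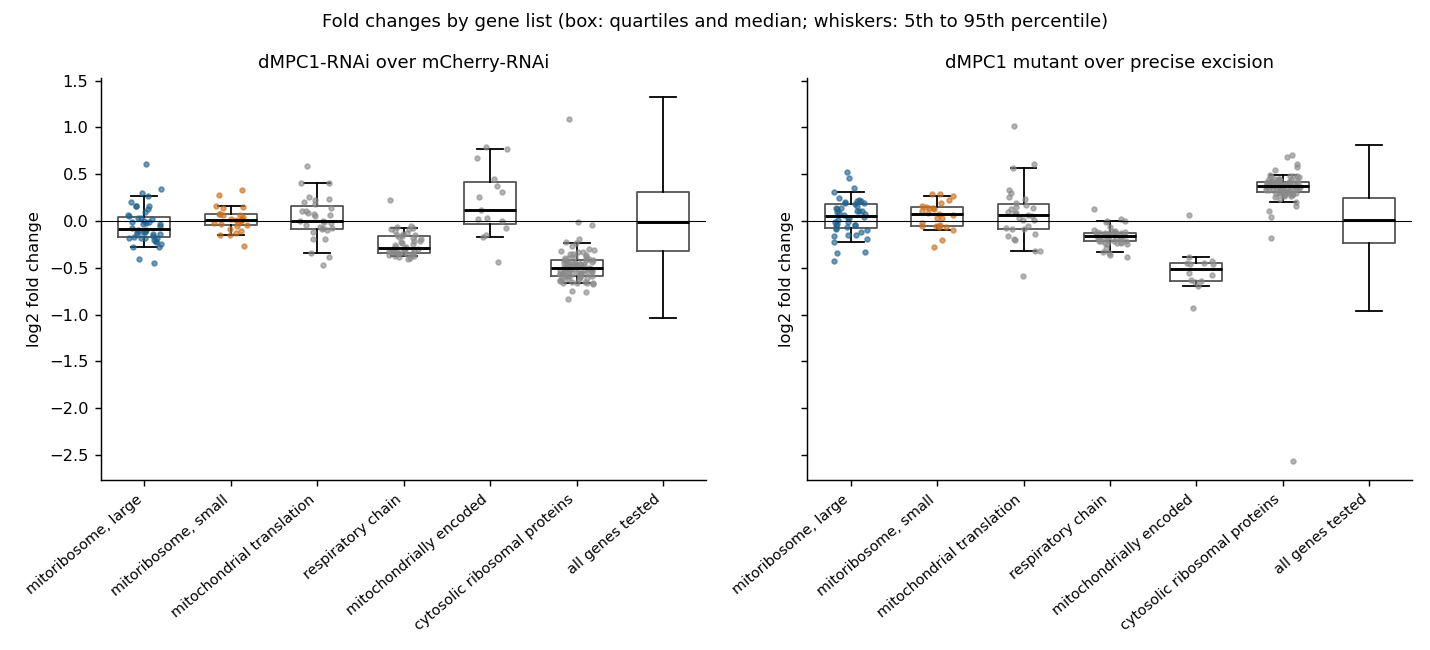
Log2 fold changes by gene list with RNAi (left) and in mutants (right). Boxes give quartiles and median, whiskers the 5th to 95th percentile, and points single genes, which are not drawn for all genes tested. Both subunits of the mitochondrial ribosome are centred near zero in both experiments, while cytosolic ribosomal protein genes have medians of −0.50 with RNAi and 0.38 in mutants.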

How the data were processed

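Of 12 labelled libraries, 8 had values in the deposited data used here, and all 8 were analysed (*myo1A > dMPC1-RNAi* replicates 1, 2 and 3, *myo1A > mCherry-RNAi* replicates 1 and 3, *dMPC1* mutant replicates 1 and 2, precise excision replicate 2). The other 4 had no values there. Each library pooled intestines of several animals. The labels number 3 replicates per group, fewer than the methods state. The authors aligned single-end reads to dm3 and used USeq and DESeq, and the submitters' notes name Novoalign and DESeq. No source used here gives versions, annotation release or strandedness of counting. The signal values deposited by the authors are gene counts divided by a size factor per library. Whole reads were recovered for 100% of 9981 values in each library, within 0.001 of a read. The authors' own fold changes and adjusted p-values were not used.

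The values being normalized, limma 3.58.1 (R 4.3.3) with a mean-variance trend was run without covariates on normalized counts, log2-transformed after adding 1, for genes whose mean over the compared libraries reached 10. Fold changes on this scale understate low genes. A call needed a p, adjusted over all genes tested by the Benjamini-Hochberg method, no higher than 0.01, and a log2 change of 0.6 or more either way, the thresholds of the study's methods. An interaction term over all 8 libraries compared the experiments. The single precise excision library was assumed to vary like the mutants. The scripts were tested on simulated data. edgeR 4.0.16 on recovered reads called 606 genes higher and 552 lower with RNAi, and 33 higher and 99 lower in mutants. DESeq2 1.42.0, TMM scaling, other pseudocounts and filters, and leaving out libraries were alternatives. With a mutant or *myo1A > mCherry-RNAi* library left out, the variance came from all remaining libraries of both experiments. A call lost there reflects the change of fit as well as the library. No 2 libraries of a group agreed within sampling noise.

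Named members were those called, the 5 largest rises and 5 largest falls per experiment among members without overlap between groups, the 3 highest and 3 lowest per kilobase, and the *mRpS18* paralogs. Lists of genes for comparison (mitochondrial translation, mitochondrial transcription and DNA upkeep, respiratory chain, mitochondrially encoded, pyruvate carrier, cytosolic ribosomal proteins) and 8 marker lists were used. All numbers per library are for these libraries alone, and p-values measure the spread between them, which may be technical. Members and lists were chosen with earlier results of these data known. Exon overlaps, chromosome arms and coding lengths came from the Ensembl BDGP6 annotation, which is not the build of the files: 70 members matched by gene ID and 2 (*mRpS5*, *mRpS34*) by symbol. Coding lengths ran from 192 to 1671 bases. By that annotation 42 of 72 members share exon sequence with a neighbouring gene, and 7 (*mRpL13*, *mRpL17*, *mRpL48*, *mRpS9*, *mRpS14*, *mRpS21*, *mRpS24*) do so over at least 20% of exon length, so their counts are uncertain.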

Additional observations from a re-analysis of the deposited data

Results flagged for a closer look

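For 3 genes named above, the fold change in mutants differed from that with RNAi by the interaction test of limma (adjusted p no higher than 0.01, log2 difference of 0.6 or more either way). None is a member. For *tko* the mutant minus RNAi difference was 1.03 (standard error 0.17, adjusted p = 0.00561). It missed 0.01 scaled to total reads (0.86, adjusted p = 0.0140) and in 6 of 7 cases with a library left out (adjusted p up to 0.0294). For *mtRNApol* it was 1.10 (standard error 0.17, adjusted p = 0.00479), with 451 and 411 normalized counts in mutants against 322 with precise excision. It missed 0.01 scaled to total reads (0.93, adjusted p = 0.0127) and in 5 of 7 cases with a library left out (adjusted p up to 0.0293). For *Mpc1*, deleted in mutants and knocked down with RNAi, it was −5.82 (standard error 0.49, adjusted p = 0.000550), and it passed with any library left out.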

How the results depend on the processing

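The call of *mRpL37* with RNAi was lost with a pseudocount of 5 (0 members called, log2 fold change 0.60 to 2 decimals, under the minimum), and the members called ranged from 0 to 1 when each library was left out. At an adjusted p of at most 0.05 without a fold minimum, 1 member fell with RNAi, and 1 was higher and 1 lower in mutants than with RNAi. With total-count scaling, chosen after seeing the data, 5 members rose with RNAi (*mRpL14*, *mRpL37*, *mRpL52*, *mRpS14*, *mRpS31*), where 1726 of all genes did, and the mutant median was 0.24. The values that changed sign with it were those of *mRpL39* (0.066), *mRpL45* (0.070), *mRpS24* (0.073) and, with RNAi, *tko* (0.33). The *tko* RNAi value was 0.0077 with edgeR and ranged from −0.084 to 0.050 when each library was left out. The *tam* mutant value ranged from −0.13 to 0.26 in the same way. The cause was not tested. Without the 20 most abundant genes, members held 0.196%, 0.203% and 0.225% in *myo1A > dMPC1-RNAi* replicates 1, 2 and 3, against 0.179% and 0.182% in controls, and 0.210% and 0.186% in mutants against 0.182% with precise excision. Without a filter on low genes, 0 genes of any kind were called in mutants, where edgeR called 33 higher and 99 lower and the fit of all libraries 47 and 147. Leaving out a library, genes called over the whole table ranged from 216 to 895 higher and 153 to 1040 lower with RNAi, and from 18 to 28 higher and 73 to 79 lower in mutants. Of 76 member counts under an alternative, 66 were within 1.5 times the reported count. The only reported count above 0 was the 1 member that rose with RNAi, so these matches mostly set 0 beside 0 and show little. Of 22 member medians, 18 kept their sign. The 4 others were RNAi medians of 0.32 with total-count scaling, 0.0046 with edgeR and 0.02 without *myo1A > dMPC1-RNAi* replicate 1, and a mutant median of −0.01 without mutant replicate 1.

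Replicate numbers 1 and 3 are shared in the RNAi experiment, and same-numbered libraries correlated at −0.23 and −0.16 in their deviations from group means. With 2 control libraries, the deviations of 1 mirror those of the other. These values therefore cannot decide whether the numbers pair samples. With the replicate block 0 members rose, and *mRpL37* was at 0.59 on the log2 scale (limma adjusted p = 0.0362), while 392 genes in all rose and 447 fell. No paired analysis was possible for the mutants because they share 1 number with the control. With 2 mutant libraries and 1 control, the interval reached past 0.6 for 19 of 72 members, so changes of that size were not excluded for them.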
